A study of Mus musculus with 16 samples.

Results

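The collagen genes are the genes whose symbol is Col, a type number, the letter a and a chain number. By that rule 44 of the 55471 genes in the methylation table were collagens, and 43 of the 43984 genes in the histone table. The gene that differs is Col26a1, which the histone table lists under its older symbol Emid2, so its histone values are given apart and are in no count. Every line was an induced pluripotent stem cell (iPSC) line, with PTC11 and PTC12 made from proximal tubule cells and TTF1 and TTF4 from tail tip fibroblasts. The donor mice carried SLC34a1-GCE, tdTomato, rtTAROSA (neo-in) and OKMS-250, alleles that all 4 lines share. Mice of 6 weeks were fed tamoxifen for 2 weeks and tissue was collected at 8 to 10 weeks. In the tubule cells Cre came from the Slc34a1 promoter and cells were sorted for GFP and tdTomato, whereas the fibroblasts received Cre from an episomal plasmid. Doxycycline switched on the reprogramming factors in both, and it had been withdrawn before the lines were used. Each line is 1 clone, and the study grew the iPSCs on mitomycin C-treated embryonic fibroblast feeders before differentiation, and in bulk libraries fewer marked cells and less of a mark per cell cannot be told apart. The question put to the collagens was whether lines of fibroblast origin carry a trace of it at genes that fibroblasts use to build matrix.

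Collagens are triple-helical proteins of the extracellular matrix. Fibrillar collagens (types I, II, III, V, XI, XXIV and XXVII) assemble into the banded fibrils of skin, tendon, bone and cartilage, and types I, III and V are the main products of dermal fibroblasts. Type IV collagens form the sheet-like network of basement membranes, including the tubular and glomerular basement membranes of the kidney, and their genes lie head to head in pairs that share a promoter region. The rest include the fibril-associated collagens (FACIT), type VI beaded filaments, short chain networks, multiplexins and transmembrane collagens. Methylation of CpGs around a transcription start site (TSS) goes with silence of CpG-rich promoters, H3K4me3 marks the start of active or poised genes, and H3K36me3 is laid down over transcribed gene bodies.

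The start regions of the collagens differed widely in CpG content, and 6 of them are shown. The relation of methylation to CpG count given below is over 1000 bp to each side of the TSS, not over these promoters. Col4a1 and Col5a1 had low methylation in all 4 lines, Col1a2 and Col3a1 are fibroblast collagens, and Col11a2 and Col4a4 had their highest methylation in TTF4. Each is the RefSeq promoter of GRCm38.p6, from 250 bases before to 50 after the RefSeq start, written 5′ to 3′ on the strand of the gene with each CpG in capitals. They are Col4a1 at chr8:11312777-11313076 on the minus strand with 37 CpGs, Col5a1 at chr2:27886175-27886474 on the plus strand with 34, Col1a2 at chr6:4505368-4505667 on the plus strand with 13, Col3a1 at chr1:45311288-45311587 on the plus strand with 0, Col11a2 at chr17:34038888-34039187 on the plus strand with 16 and Col4a4 at chr1:82586800-82587099 on the minus strand with 14.
Col4a1: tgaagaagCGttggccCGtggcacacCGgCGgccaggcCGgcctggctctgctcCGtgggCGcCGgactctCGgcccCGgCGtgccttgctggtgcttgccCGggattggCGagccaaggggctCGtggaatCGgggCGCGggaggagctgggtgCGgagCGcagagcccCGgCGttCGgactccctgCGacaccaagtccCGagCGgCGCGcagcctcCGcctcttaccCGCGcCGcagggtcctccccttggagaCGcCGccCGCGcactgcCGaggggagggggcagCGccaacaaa
Col5a1: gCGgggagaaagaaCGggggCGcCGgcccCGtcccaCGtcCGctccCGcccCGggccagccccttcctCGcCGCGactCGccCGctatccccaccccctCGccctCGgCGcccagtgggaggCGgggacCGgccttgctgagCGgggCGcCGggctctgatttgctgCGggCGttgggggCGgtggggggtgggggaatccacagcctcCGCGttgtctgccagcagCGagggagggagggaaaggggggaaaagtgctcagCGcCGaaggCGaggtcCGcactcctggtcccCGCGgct
Col1a2: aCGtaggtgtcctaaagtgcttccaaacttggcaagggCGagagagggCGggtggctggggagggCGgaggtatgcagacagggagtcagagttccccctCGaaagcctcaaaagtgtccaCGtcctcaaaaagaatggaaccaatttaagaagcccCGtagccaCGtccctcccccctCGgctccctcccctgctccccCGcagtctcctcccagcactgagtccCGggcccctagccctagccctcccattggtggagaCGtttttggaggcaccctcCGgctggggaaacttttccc
Col3a1: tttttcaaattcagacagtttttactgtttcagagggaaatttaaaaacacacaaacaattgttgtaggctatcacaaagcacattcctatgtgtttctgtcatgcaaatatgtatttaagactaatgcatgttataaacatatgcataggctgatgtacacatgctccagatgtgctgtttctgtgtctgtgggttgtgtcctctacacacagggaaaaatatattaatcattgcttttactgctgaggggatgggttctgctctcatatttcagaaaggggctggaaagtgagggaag
Col11a2: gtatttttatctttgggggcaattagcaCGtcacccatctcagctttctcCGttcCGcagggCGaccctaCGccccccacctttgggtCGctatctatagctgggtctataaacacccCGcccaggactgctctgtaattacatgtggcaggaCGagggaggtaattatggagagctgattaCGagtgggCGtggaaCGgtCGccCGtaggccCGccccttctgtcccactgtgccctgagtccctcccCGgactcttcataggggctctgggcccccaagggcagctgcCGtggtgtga
Col4a4: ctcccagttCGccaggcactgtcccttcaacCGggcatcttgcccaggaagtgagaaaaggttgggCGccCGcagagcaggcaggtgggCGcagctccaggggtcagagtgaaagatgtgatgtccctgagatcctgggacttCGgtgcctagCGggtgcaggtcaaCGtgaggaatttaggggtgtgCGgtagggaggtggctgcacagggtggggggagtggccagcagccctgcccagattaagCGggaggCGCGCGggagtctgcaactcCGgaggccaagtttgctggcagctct
The RefSeq start lay on the TSS of the tables for Col4a1, Col5a1, Col3a1 and Col4a4, 804 bp downstream of it for Col1a2 and at -299 bp for Col11a2. RefSeq promoters were matched for 35 of the 44 collagens, 38 promoters in all, with a median of 11.5 CpGs against 7 over all 32817 promoters of the table. At least 20 CpGs were found in 9 of the 38 (23.7%, against 26.5% of all promoters). The letters GGGCGG, which hold a CpG, were, on either strand, present in 23 of the 38 (60.5%, against 35.6%), and CCAAT, on either strand, in 13 (34.2%, against 37.4%). Within 1000 bp to each side of the TSS of the tables, the median was 48.5 CpGs for the 44 collagens and 25 for all genes, with 44 for the 11 fibrillar, 55.5 for the 6 type IV and 51 for the 27 other collagens.

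The mean methylated fraction over all genes was 0.372 (PTC11), 0.482 (PTC12), 0.379 (TTF1) and 0.649 (TTF4). H3K36me3 was low in PTC11 and TTF1 (medians 1.60 and 1.18 RPKM) and high in PTC12 and TTF4 (3.88 and 4.01), across the origins. H3K4me3 had a value at 34.4% to 45.4% of genes per line. The tables give no reads or coverage, so the depth behind a value is unknown. Pluripotency genes were listed as a check of cell type, which cannot tell the origins apart. H3K4me3 had a value at 9 of 10 of them in PTC11, PTC12 and TTF1 and at 6 in TTF4. Esrrb had none in any line. Dppa5a, Zfp42 and Dppa3 lacked a value only in TTF4, where their methylated fractions were 0.771, 0.803 and 0.856. Of 10 proximal tubule genes, 1 had a value in PTC11, TTF1 and TTF4 and 4 did in PTC12, while Slc34a1 itself had none in any line.

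Around the TSS, no collagen was called different between origins. Of 43 collagens with a fraction in all 4 lines, 0 passed an adjusted p under 0.05 in limma, with 0 at an unadjusted p under 0.05, against 2 of 50657 genes (0.00395%) and 4.72% of genes at the unadjusted threshold. The collagen medians were 0.245 (PTC11), 0.389 (PTC12), 0.319 (TTF1) and 0.693 (TTF4), following the order of the medians of all genes (0.380, 0.535, 0.370 and 0.769) except that TTF1 lay above PTC11. After the mean of each line was subtracted, the median TTF minus PTC difference was -0.00503 for the collagens, with 21 positive and 22 negative, and -0.0100 for all genes. The 95% intervals of single collagens reached 0.239 to 0.326 to each side before adjustment, so that smaller differences were not detectable with these lines. Larger ones could go uncalled as well, since calls were adjusted over 50657 genes. In simulated data 36.5% of changes of 0.5 were called.

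**Figure D1:**
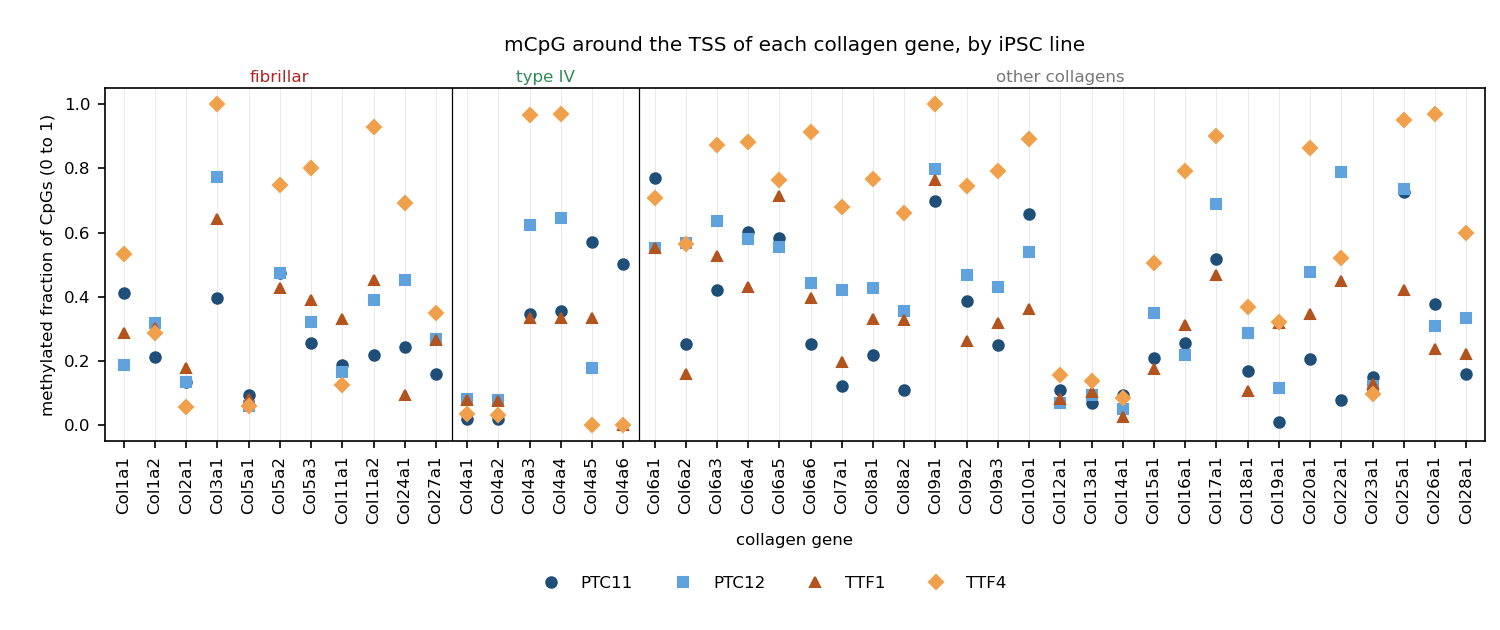
Methylated fraction of CpGs within 1000 bp of the TSS (vertical axis, 0 to 1) of each of 44 collagen genes (horizontal axis), with 1 point per iPSC line and no error bars because each line is 1 library. TTF4 lies highest at 31 of the 43 genes with a value in all 4 lines, while Col4a1, Col4a2 and Col5a1 lie under 0.2 in every line.

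The collagens of dermal fibroblasts showed no common direction. Col1a1 and Col1a2 encode the chains of type I collagen. The fraction at Col1a1 (chromosome 11, 94936224 to 94953042, mm10) was 0.410 (PTC11), 0.185 (PTC12), 0.288 (TTF1) and 0.532 (TTF4), so TTF1 lay between the PTC lines and TTF4 above them. At Col1a2 (chromosome 6, 4504814 to 4541544) it was 0.212, 0.317, 0.303 and 0.287 in the same order, with both TTF lines between the PTC lines. Their centred differences were 0.025 ± 0.145 (SE, n = 2 lines per origin) and -0.056 ± 0.139. Col3a1, the homotrimer that accompanies type I in skin, had 0.396 (PTC11), 0.772 (PTC12), 0.643 (TTF1) and 1.00 (TTF4). TTF4 was highest and TTF1 lay between the PTC lines, for a centred difference of 0.150 ± 0.147 in limma. In its RefSeq promoter above there was no CpG, and 10 lay within 1000 bp of its TSS.

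Type V collagen, which nucleates type I fibrils, was split between its chains. Col5a1 had fractions of 0.093, 0.058, 0.081 and 0.060 in PTC11, PTC12, TTF1 and TTF4, low in every line and overlapping. Col5a2 had 0.474, 0.473, 0.426 and 0.749, with TTF4 above the other lines. Col5a3 had 0.257, 0.320, 0.390 and 0.801, with both TTF lines above both PTC lines and a centred difference of 0.220 ± 0.150 (adjusted p of 1.00 in limma).

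The cartilage collagens held the extreme of the fibrillar class. Col11a2, a chain of the thin fibrils of cartilage, had 0.218 (PTC11), 0.389 (PTC12), 0.453 (TTF1) and 0.930 (TTF4). Both TTF lines were above both PTC lines, most of the gap lay between TTF4 and the other lines, and the origins averaged 0.303 ± 0.121 (SD, n = 2 lines) and 0.692 ± 0.338. Its centred difference of 0.301 (interval -0.010 to 0.613) was the highest of the 43 collagens and had the smallest unadjusted p in limma, 0.0576, with an adjusted p of 1.00. Its partner Col11a1 had 0.186, 0.164, 0.331 and 0.124, so TTF1 was highest and TTF4 lowest. Col2a1, the main cartilage fibril, had 0.135, 0.135, 0.177 and 0.057 and was again lowest in TTF4. Col24a1 ranged from 0.094 in TTF1 to 0.693 in TTF4, with both PTC lines between, and Col27a1 from 0.159 in PTC11 to 0.350 in TTF4.

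The 6 type IV genes formed 3 promoter pairs and so stand for 3 regions rather than 6. Col4a1 and Col4a2, the ubiquitous chains, start 21 bp apart on chromosome 8. Col4a1 had 0.020, 0.081, 0.077 and 0.034 in PTC11, PTC12, TTF1 and TTF4, low throughout, with 154 CpGs within 1000 bp, the most of any collagen together with Col4a2. Col4a3 and Col4a4, chains of the mature glomerular basement membrane, start 72 bp apart on chromosome 1. Col4a4 had 0.355, 0.644, 0.335 and 0.969, so TTF4 was highest and TTF1 lowest, and Col4a3 had 0.345, 0.624, 0.334 and 0.967. The centred differences of these 4 genes ran from -0.082 to 0.079.

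Col4a5 and Col4a6 start 1309 bp apart on chromosome X, and TTF4 was listed at 0 at both. Col4a5 (141475385 to 141689234) had 0.572 in PTC11, 0.178 in PTC12, 0.333 in TTF1 and was listed at 0 in TTF4, and TTF1 lay between the PTC lines. Col4a6 (141165403 to 141474076) had 0.503 in PTC11, no value in PTC12, and was listed at 0 in both TTF lines, so it was not tested. The centred difference of Col4a5, -0.295 (interval -0.606 to 0.015, adjusted p of 1.00 in limma), was the lowest of all collagens. Without TTF1 it was -0.597 with an adjusted p of 0.000204, the 1 collagen called under any alternative, in a fit that assumes that the lone TTF4 varies like the PTC lines and that called 1003 genes in all. Without TTF4 it was 0.00682. Values on chromosome Y moved with origin, since of 1569 chromosome Y genes, 45 had a fraction (PTC11), 10 (PTC12), 148 (TTF1) and 152 (TTF4). Of the fractions on chromosome X, 5.73%, 5.91%, 11.7% and 3.17% were listed at 0 in that order, with the TTF lines on either side of the PTC lines, and on the other chromosomes 0.504% (TTF4) to 2.28% (TTF1). The sex of the lines is not given in the sources used here, and its part in the result was not tested.

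Among the other collagens, Col16a1, a fibril-associated collagen, had the largest positive difference, 0.226 ± 0.147. It had fractions of 0.257, 0.220, 0.310 and 0.793, with TTF4 well above the 3 other lines. Col6a2 and Col25a1 had the largest negative differences after Col4a5, at -0.135 ± 0.146 and -0.132 ± 0.146. Col6a2, a chain of the beaded filaments around cells, had 0.252, 0.568, 0.160 and 0.564, low in 1 line of each origin, and Col25a1, a transmembrane collagen of neurons, had 0.726, 0.736, 0.422 and 0.950 with the TTF lines on either side of the PTC lines. Col22a1, found at tissue junctions, had the widest centred range after Col4a5, 0.598, from 0.079 in PTC11 to 0.787 in PTC12, and Col26a1 followed with 0.493, from 0.236 in TTF1 to 0.970 in TTF4.

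After centring, the TTF lines both lay above the PTC lines at 8 of 43 collagens (18.6%, against 15.0% of all genes; 12 after quantile normalization or on the logit scale and 6 as deposited): Col5a3, Col6a6, Col8a1, Col8a2, Col9a1, Col11a2, Col16a1 and Col19a1. They lay below both at 1, Col18a1 (2.33%, against 12.8% of all genes), a count that became 4 after quantile normalization or on the logit scale. Before centring TTF4 was the highest line at 31 of 43 collagens (75.4% of all genes), and it exceeded every other line by at least 0.3 at 11 (25.6%, against 14.9% of all genes), a gap that only 1 TTF line shows. TTF4 was the lowest line at 4 collagens, Col2a1, Col4a5, Col11a1 and Col23a1 (2.99% of all genes). At 8 collagens the fraction was under 0.2 in all 4 lines (18.6%, against 12.4% of all genes): Col2a1, Col4a1, Col4a2, Col5a1, Col12a1, Col13a1, Col14a1 and Col23a1.

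**Figure D2:**
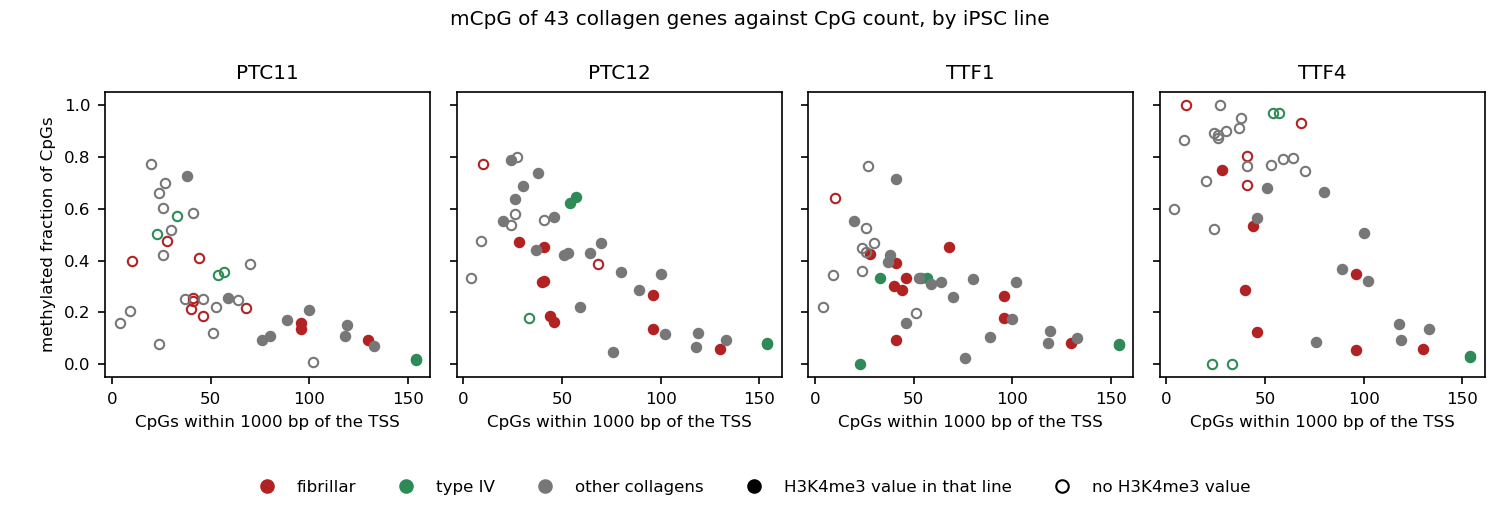
Methylated fraction (vertical axis) against the number of CpGs within 1000 bp of the TSS (horizontal axis) for 43 collagens, 1 panel per iPSC line, filled where the gene had an H3K4me3 value in that line. Genes with 118 or more CpGs are low and filled in all 4 panels, and in TTF4 most genes with fewer lie higher than in the other lines. At Col25a1 the fraction and the H3K4me3 value come from starts 49390 bp apart.

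Methylation of the collagens followed the CpG content of their start regions in every line. Spearman's rho between the CpG count and the fraction was -0.65 (PTC11), -0.72 (PTC12), -0.63 (TTF1) and -0.44 (TTF4) over 43 or 44 collagens, against -0.56 to -0.63 over all genes. Genes are not independent replicates, and the 4 lines share the same sequence, so these are descriptions. The 12 collagens with H3K4me3 in all 4 lines had 76 to 154 CpGs (median 109) and median fractions of 0.109, 0.107, 0.104 and 0.116 in PTC11, PTC12, TTF1 and TTF4. The 25 with H3K4me3 in 1 to 3 lines had 20 to 102 CpGs (median 41) and medians of 0.257, 0.447, 0.333 and 0.749. They include Col25a1, where the TSS used for H3K4me3 lay 49390 bp from the TSS used for methylation and CpG count. The 6 without H3K4me3 in any line had 4 to 27 CpGs (median 17) and medians of 0.500, 0.559, 0.396 and 0.888. The medians of the lines were thus close together in the first set, whereas TTF4 was highest in the other sets. Single genes of the first set were less alike. The highest fraction there was 0.209 (PTC11), 0.354 (PTC12), 0.329 (TTF1) and 0.662 (TTF4, at Col8a2). A peak in TTF4 was itself a condition of that set.

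H3K4me3 at the collagens varied first by line. A value means that a peak was kept at the TSS. At the collagens every value was above 0, the lowest being 1.79 RPKM. The shares of all genes include values listed at 0, at 193 (PTC11), 448 (PTC12), 453 (TTF1) and 221 (TTF4) genes. Of 43 collagens, 14 had one in PTC11 (32.6%, against 34.4% of all genes), 33 in PTC12 (76.7%, against 45.4%), 33 in TTF1 (76.7%, against 44.2%) and 19 in TTF4 (44.2%, against 34.9%). The lines rich in collagen peaks were thus 1 of each origin. There was no collagen with a peak in both TTF lines and in neither PTC line, as at 84 genes of the whole table (0.191%), and none with a peak in both PTC lines and neither TTF line (0.134% of all genes).

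**Figure D3:**
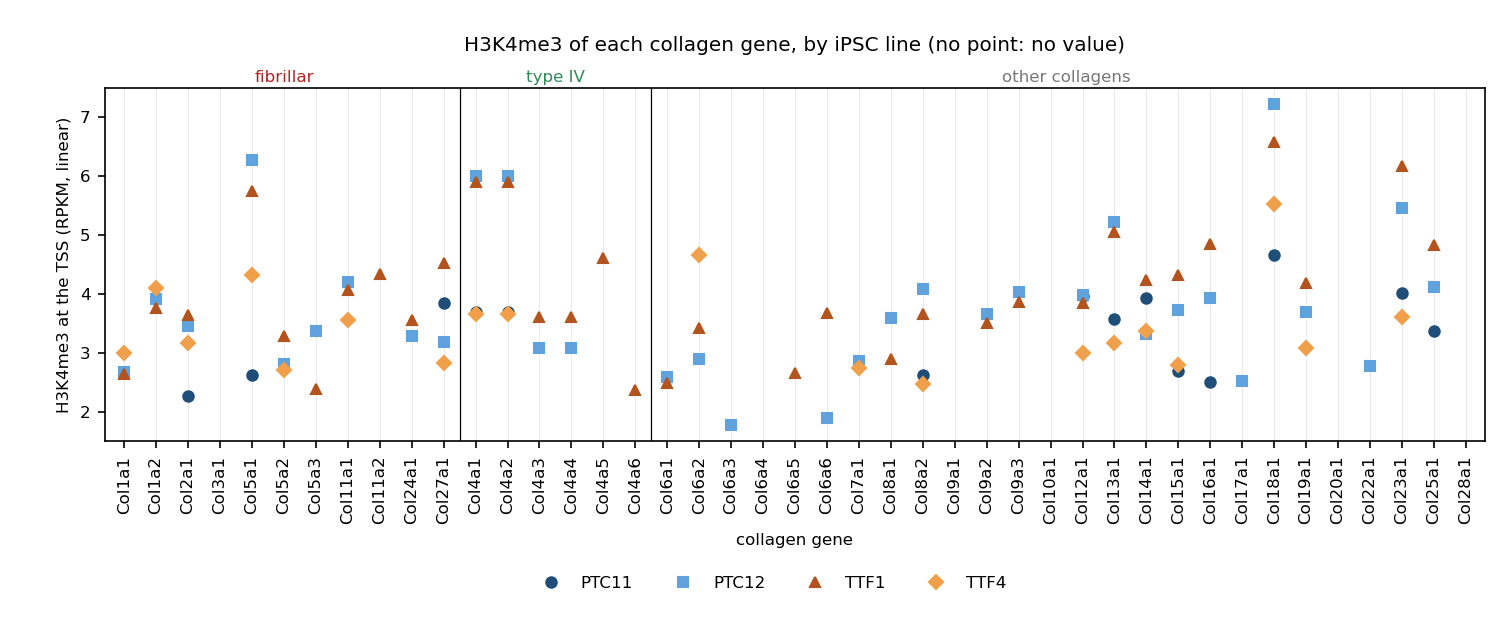
H3K4me3 at the TSS (vertical axis, RPKM on a linear scale, peaks above input) of 43 collagen genes (horizontal axis), with 1 point per iPSC line where a value was given and no error bars. Col18a1 is highest in each line, 4.66 to 7.22 RPKM, and Col3a1 has no point.

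Col1a1, Col1a2 and Col5a2, chains of the fibrils of skin, had H3K4me3 in a PTC line as well as in both TTF lines. Col1a1 had no value (PTC11), 2.69 RPKM (PTC12), 2.65 (TTF1) and 3.01 (TTF4). Col1a2 had no value in PTC11, then 3.93, 3.78 and 4.11, and Col5a2 no value in PTC11, then 2.82, 3.29 and 2.73. At all 3 genes the PTC12 value lay between those of TTF1 and TTF4. Col11a1, Col6a2 and Col19a1 shared the pattern of a peak in every line but PTC11, which made 6 of 43 collagens (14.0%) against 2.71% of all genes. Col3a1 had no value in any line.

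The remaining fibrillar genes measured in every line were Col2a1, Col5a1 and Col27a1. Col5a1 had 2.64 (PTC11), 6.27 (PTC12), 5.75 (TTF1) and 4.33 (TTF4), so the TTF lines lay between the PTC lines, and its log2 difference of 0.22 ± 0.44 (SE) was the highest of the 12 collagens tested. Col2a1 had 2.29, 3.47, 3.64 and 3.18, lowest in PTC11, for 0.20 ± 0.29 on the log2(RPKM + 1) scale. Col27a1 had 3.85, 3.20, 4.53 and 2.84 with overlapping origins. Of the others, Col24a1 and Col5a3 had peaks in PTC12 and TTF1, and Col11a2 in TTF1 alone, at 4.34 RPKM.

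The type IV pairs differed from each other more than the origins did. Col4a1 and Col4a2 had identical values, 3.71 (PTC11), 6.01 (PTC12), 5.90 (TTF1) and 3.67 (TTF4), because the same peaks were assigned to both, and their log2 difference was -0.017 ± 0.453. Col4a3 and Col4a4 also shared their values, 3.09 in PTC12 and 3.61 in TTF1, with none in PTC11 and TTF4. Col4a5 and Col4a6 had a value in TTF1 alone, 4.63 and 2.38 RPKM. At this pair H3K4me3 was thus seen in 1 of the TTF lines, and not in TTF4, where the fraction was listed at 0.

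Across the 12 collagens with a value in all 4 lines, 0 were called in limma (0 at an unadjusted p under 0.05, smallest 0.485 at Col2a1), against 66 of 13709 genes (0.481%) and 0.977% of genes at the unadjusted threshold. The median log2 difference was 0.02 for the collagens and 0.04 for all genes. Col12a1, a fibril-associated collagen, had the lowest difference, -0.18 ± 0.35, and was the 1 collagen with both TTF lines below both PTC lines (3.17% of all genes). It had 3.97 (PTC11), 3.99 (PTC12), 3.85 (TTF1) and 3.01 (TTF4), so that TTF1 was just below the PTC lines. No collagen had both TTF lines above (5.04% of all genes). Col15a1, a multiplexin of basement membrane zones, had the next highest difference after Col2a1, 0.11 ± 0.31, and Col8a2 and Col13a1 the next lowest, -0.093 ± 0.293 and -0.087 ± 0.400. Values in TTF1 alone were found at Col6a5 (2.67) and, as given above, at Col4a5, Col4a6 and Col11a2. These were 4 collagens (9.30%, against 2.90% of all genes). Values in PTC12 alone were found at 3, Col6a3, Col17a1 and Col22a1 (1.79 to 2.78; 6.98%, against 4.06% of all genes). Emid2, the older symbol of Col26a1, had 4.26 in PTC12 and 3.75 in TTF1. Col15a1 and Col16a1 shared their H3K4me3 values with a neighbouring gene within 298 bp, so the signal cannot be assigned to either gene.

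H3K36me3 over the gene body was present nearly throughout and split the lines across the origins. It had a value at 43 of 43 collagens in PTC11 and PTC12, 41 in TTF1 and 42 in TTF4, against 46.3% to 68.0% of all genes. Both PTC12 and TTF4 lay above both PTC11 and TTF1 at 37 of the 40 collagens with a value in all 4 lines (92.5%, against 93.6% of all genes). Collagen medians were 1.64, 3.60, 1.23 and 3.98 RPKM in PTC11, PTC12, TTF1 and TTF4. The exceptions were Col3a1, Col6a1 and Col9a1.

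**Figure D4:**
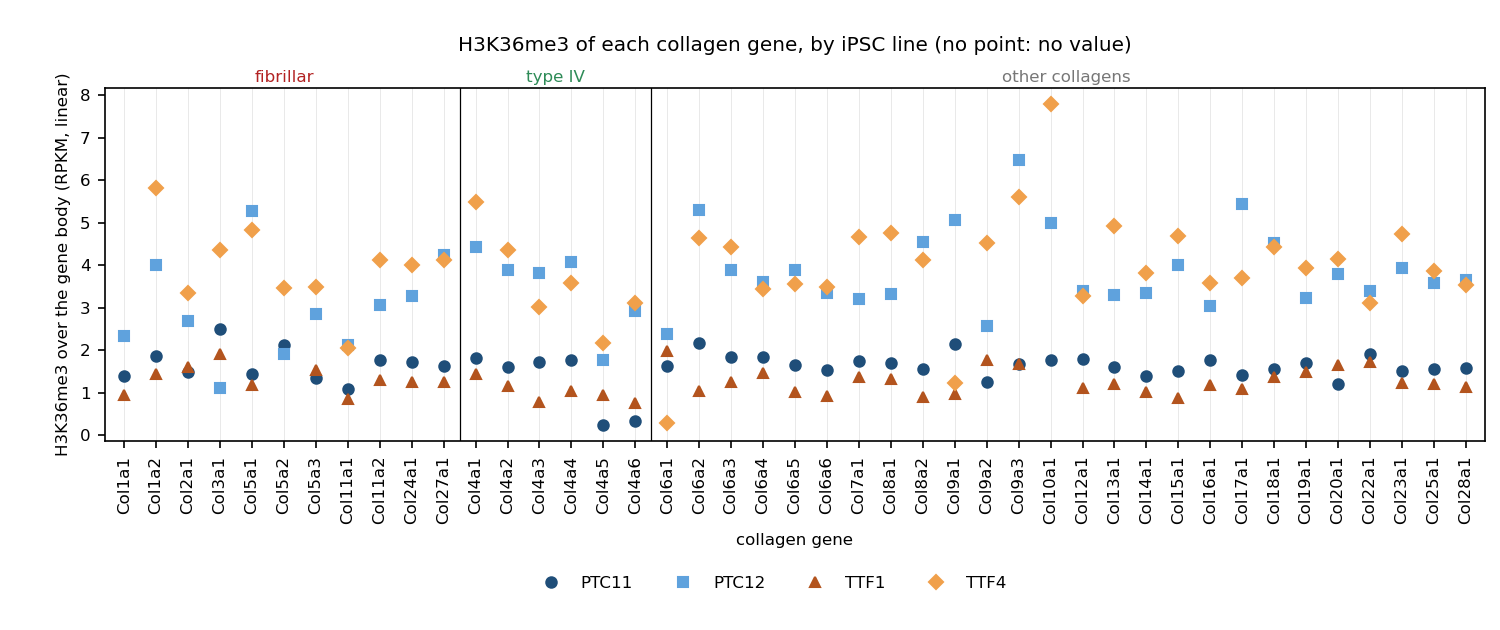
H3K36me3 over the gene body (vertical axis, RPKM on a linear scale, peaks above input) of 43 collagen genes (horizontal axis), with 1 point per iPSC line where a value was given and no error bars. PTC12 and TTF4 form the upper band at 37 of 40 genes, and Col3a1, Col6a1 and Col9a1 break it.

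At these 3 genes lay the largest differences between origins. Col9a1, a fibril-associated collagen of cartilage, had 2.15 (PTC11), 5.07 (PTC12), 0.980 (TTF1) and 1.23 (TTF4), the 1 collagen with both TTF lines below both PTC lines (3.05% of all genes), while none had both above (0.452% of all genes), for a log2 difference of -1.06 ± 0.87 and an unadjusted p of 0.222 in limma, the smallest of the collagens. Col6a1, which pairs with Col6a2 in type VI filaments, had 1.64, 2.38, 1.99 and 0.286, lowest in TTF4 with TTF1 between the PTC lines, for -0.61 ± 0.61. Col3a1 had 2.49, 1.11, 1.91 and 4.36, highest in TTF4 and lowest in PTC12, for the largest positive difference, 0.54 ± 0.95. Col9a2 (1.26, 2.59, 1.79 and 4.54) and Col4a5 (0.248, 1.78, 0.964 and 2.16) followed at 0.47 ± 0.97 and 0.42 ± 0.49, and Col4a3 (1.72, 3.82, 0.782 and 3.03) was the third lowest at -0.43 ± 0.90. In each of these 3 the origins overlapped.

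The type I genes again did not part by origin. Col1a2 had 1.87 (PTC11), 4.02 (PTC12), 1.45 (TTF1) and 5.83 (TTF4), so the TTF lines were at both ends. Col1a1 had 1.41, 2.33 and 0.944 in PTC11, PTC12 and TTF1 and no value in TTF4. Of 40 collagens, 0 were called in limma (0 at an unadjusted p under 0.05), against 19 of 17039 genes (0.112%) and 0.681% of genes at the unadjusted threshold. The median log2 difference was -0.08 for the collagens and -0.14 for all genes, so the collagens lay 0.059 above the median of all genes. The 95% intervals of single collagens reached a median of 1.94 to each side on the log2 scale before adjustment, so that differences of several fold were not detectable. Larger ones could go uncalled as well, since in simulated data 6% of changes of 2 on that scale were called.

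**Figure D5:**
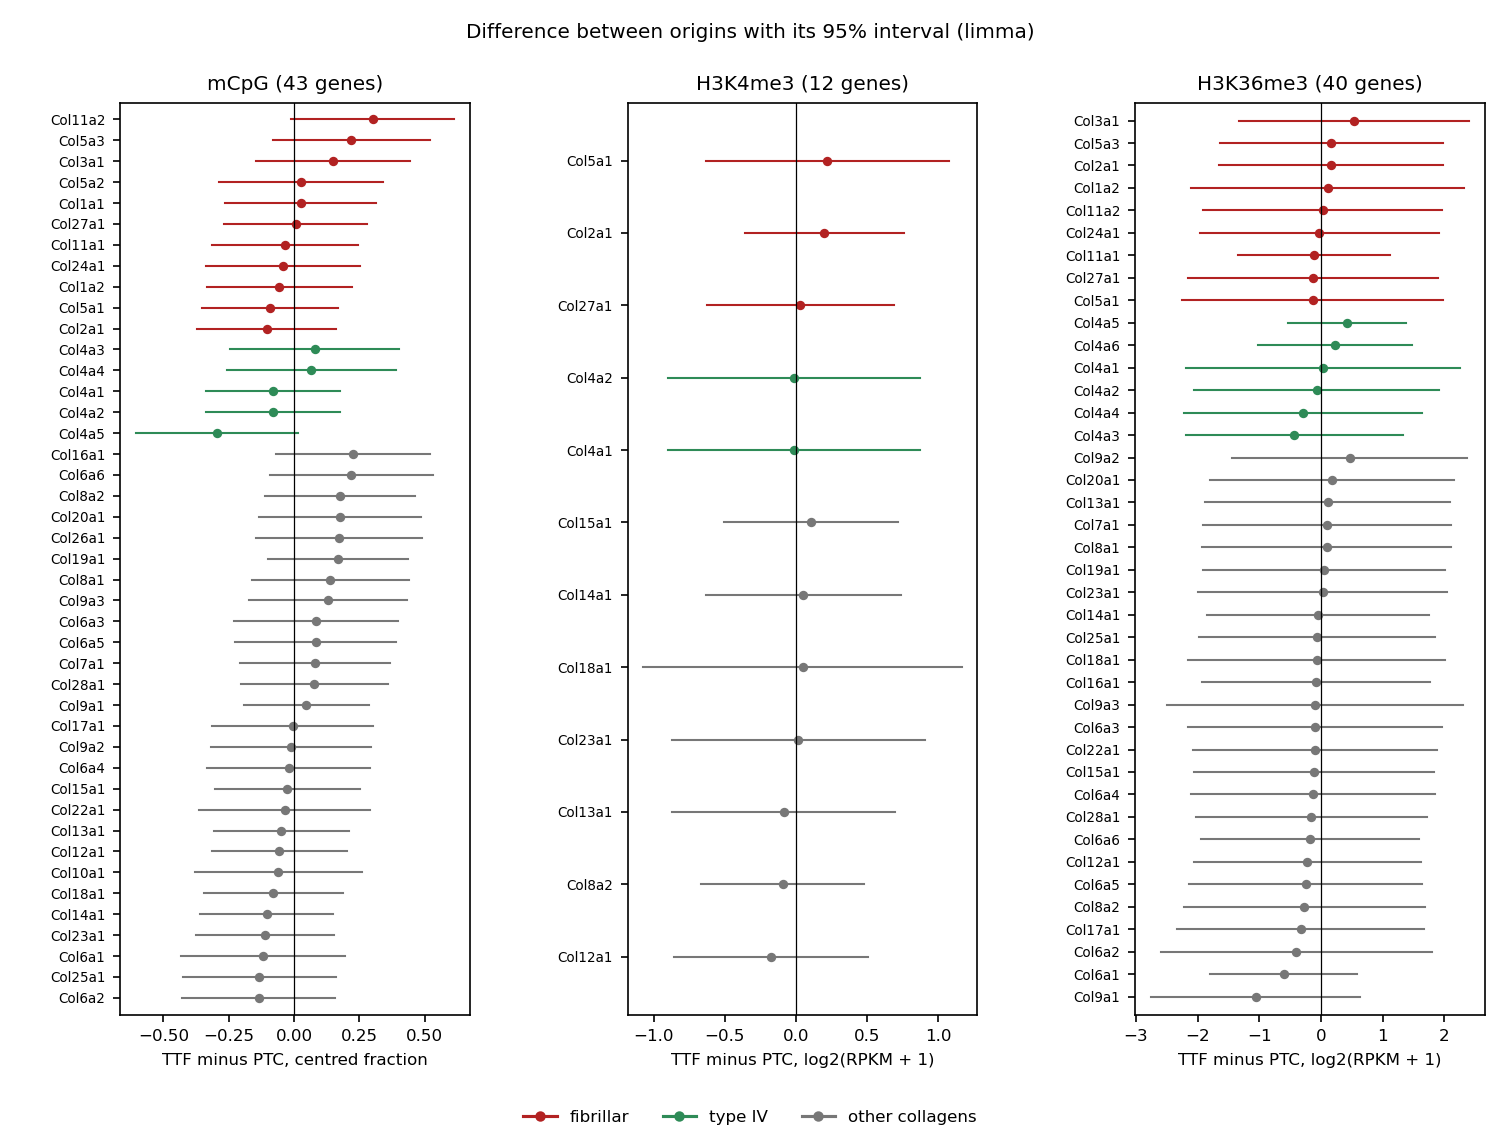
TTF minus PTC difference (point) and its 95% interval (bar) from limma for each collagen with a value in all 4 lines, with 43 genes for mCpG (centred fraction), 12 for H3K4me3 and 40 for H3K36me3 (both log2(RPKM + 1)). Every interval crosses 0, and Col11a2 and Col4a5 in mCpG come nearest to excluding it.

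Whether fibrillar and type IV collagens parted by origin in methylation depended on which genes were counted as basement membrane. The median fibrillar fraction minus the median of the 5 type IV genes with a fraction in all 4 lines was -0.127 (PTC11), 0.139 (PTC12), -0.030 (TTF1) and 0.497 (TTF4), with TTF1 between the PTC lines. With Col15a1 and Col18a1 added to the type IV genes it was 0.00897, 0.030, 0.128 and 0.165 in the same order, so that the TTF lines were both above the PTC lines. The fibrillar median minus that of the 27 other collagens, those of neither class, was -0.031 (PTC11), -0.113 (PTC12), -0.016 (TTF1) and -0.214 (TTF4). There the TTF lines lay on either side of the PTC lines. In H3K4me3 the median of the 3 fibrillar genes tested minus the shared Col4a1 and Col4a2 value was -1.07, -2.53, -1.37 and -0.492 RPKM, again overlapping between origins. Single genes lay on both sides of the type IV value, with Col5a1 above it in PTC12 and TTF4 and Col27a1 above it in PTC11. The H3K4me3 fibrillar median minus that of the 7 other collagens was -1.30 (PTC11), -0.620 (PTC12), 0.211 (TTF1) and -0.00385 (TTF4) RPKM. In this contrast each TTF value exceeded each PTC value. The single log2 differences were positive at 3 fibrillar genes and negative at 0, from 0.031 to 0.22. Among the 7 others 4 were positive and 3 negative. At each of the 3 fibrillar genes the origins overlapped. In H3K36me3 the fibrillar median of 9 genes minus that of 6 type IV genes was -0.032 and -0.776 RPKM in PTC11 and PTC12 and 0.295 and 0.768 in TTF1 and TTF4. Here the TTF lines both lay above the PTC lines, and they did so too for fibrillar minus the other collagens of neither class (0.00375 and -0.524 against 0.091 and 0.181). With Col15a1 and Col18a1 added to the type IV genes the H3K36me3 values were 0.048, -0.868, 0.295 and 0.142, with the TTF lines still above. No test was run on these medians, since genes are not replicates, and of the single fibrillar differences in H3K36me3 5 were positive and 4 negative. The 9 fibrillar genes of the H3K36me3 contrasts left out Col1a1, which had no value in TTF4, and Col5a2, which had none in TTF1. Col1a1 had 1.41 (PTC11), 2.33 (PTC12) and 0.944 (TTF1) RPKM. Col5a2 had 2.14 (PTC11), 1.92 (PTC12) and 3.46 (TTF4).

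H3K27me3, the mark of Polycomb repression, gave no value at any of 43 collagens in any library. It had a value at 69 and 144 of 43984 genes in the libraries labelled PTC11, 52 in TTF1 and 11 in TTF4, so its absence at the collagens was not distinguishable from a lack of signal.

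The genes that make and handle collagen were described in the same way. Of 17 enzymes and chaperones of the endoplasmic reticulum, 13 proteins that process or crosslink collagen outside the cell and 7 receptors, 0 were called in limma in either direction in methylation (36 tested, against 0.00395% of all genes called), H3K4me3 (21, against 0.481%) or H3K36me3 (28, against 0.112%). In methylation the highest difference was at Lox, the oxidase that starts collagen crosslinking, with 0.094 (PTC11), 0.082 (PTC12), 0.164 (TTF1) and 0.986 (TTF4). Both TTF lines lay above, but TTF1 stood far nearer the PTC lines than TTF4, and its difference of 0.400 ± 0.150 had an adjusted p of 0.829 in limma. The lowest was at Ddr1, a collagen receptor, with 0.096, 0.226, 0.048 and 0.040 and a difference of -0.204 ± 0.129. In H3K4me3 the extremes were Plod1, a lysyl hydroxylase (0.44 ± 0.36), and Adamts14, a procollagen peptidase (-0.39 ± 0.41). In H3K36me3 they were the integrin chains Itga10 (0.48 ± 0.96) and Itgb1 (-0.81 ± 1.16), and in both the origins overlapped. The smallest unadjusted p of the pathway genes, 0.00403 in limma with an adjusted p of 1.00, was that of Loxl2, a lysyl oxidase relative named after its values were seen. Its H3K36me3 was 0.098 (PTC11), 0.159 (PTC12), 0.726 (TTF1) and 0.346 RPKM (TTF4), low in every line, with both TTF lines above both PTC lines (0.452% of all genes) and a log2 difference of 0.43 ± 0.15.

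Markers of fibroblasts, the cell type of the TTF donors and of the feeders, were listed beside the collagens. Of 12, H3K4me3 had a value at 3 (PTC11), 7 (PTC12), 7 (TTF1) and 5 (TTF4), with summed levels of 8.63, 27.4, 29.5 and 16.8 RPKM. The same lines were rich in collagen peaks. Fap, Lum, Dcn, Postn and S100a4 had no value in any line. In methylation 0 of the 12 were called in limma. After centring, 5 lay lower in both TTF lines (Thy1, Fap, Lum, Postn and Vim, against 12.8% of all genes) and Dcn lay higher. The median centred difference was -0.099. As deposited, TTF4 was the highest line at Fap (0.825), Lum (0.841) and Postn (0.813). At Thy1 TTF4 had 0.250, between PTC11 (0.063) and PTC12 (0.255). At Dcn TTF1 (0.380) lay between PTC11 (0.277) and PTC12 (0.454). Vim was lower in both TTF lines as deposited too (0.027 and 0.036, against 0.042 and 0.134). The part of these markers in the collagen values was not tested.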

How the data were processed

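Members and gene lists were chosen with earlier results of these data known. The authors aligned ChIP reads to mm10 with Bowtie2 2.1.0, called peaks per library against input with MACS2 2.0.10, counted reads with bedtools 2.17.0 and deposited the mean input-subtracted RPKM of the peaks of each gene, taking gene bodies for H3K36me3 and 2 kb before to 3 kb after the TSS for the other marks. A gene without a kept peak has no value. For nanopore reads the authors used Guppy 4.2.2, minimap2 2.17-r941 and Nanopolish 0.13.2 (versions from the submitters' processing notes and the methods of the study) and deposited the fraction of methylated CpGs within 1000 bp of the TSS, averaged in 300 bp windows sliding by 30 bp. Of the 16 libraries, there was 1 per line for methylation, H3K4me3 and H3K36me3. Both PTC libraries of H3K27me3 carry the name PTC11 and none carries PTC12, so that mark was not tested. The study describes its ChIP as done in duplicate. The line names of the ChIP values end in 1 or 2, mixed across the lines compared. P-values and intervals rest on the spread between 2 clones per origin after limma moderated it with the variance of all genes. They are thus not the spread of the clones at a single gene. Without the variance trend, the SE in H3K36me3 was 0.823 at Col11a1, Col11a2, Col1a2 and Col24a1 alike.

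Genes measured in all 4 lines were fitted with limma 3.58.1 in R 4.3.3 (lmFit, eBayes with trend), TTF minus PTC, on log2(RPKM + 1), which understates changes of low genes, or on the fraction minus the mean of the line, adjusted by Benjamini-Hochberg over the genes tested, with calls at 0.05. Errors of differences are SE from the moderated variance. The text names every fibrillar and type IV gene, the 3 highest and 3 lowest differences per assay, the 5 widest centred ranges in methylation, genes with H3K4me3 in 1 line, and pathway genes at the extremes, and collagens in small counts are named after their values were seen. Alternatives changed the pseudocount, low value filters, missing values, scaling, the variance trend, the type IV class, and each line in turn. Tested on simulated data at the spread of the lines, limma recovered 36.5% of 200 genes changed by 0.5 in methylation (50657 genes), 48% changed by 2 on the log2 scale in H3K4me3 (13709) and 6% in H3K36me3 (17039), with 3, 3 and 0 genes called falsely. Python 3.11.15, numpy 2.4.6, pandas 2.3.3, scipy 1.17.1 and matplotlib 3.10.9 did the rest.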

Additional observations from a re-analysis of the deposited data

How the results depend on the processing

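No collagen was called under any alternative in H3K4me3 or H3K36me3, and in methylation 1 was, Col4a5 without TTF1, so that the count of collagens called ran from 0 to 1 as each line was left out. Leaving out a line leaves 1 line in its origin, which limma then assumes to vary like the other origin. Counts over all genes moved far more: the 66 H3K4me3 calls, 19 H3K36me3 calls and 2 methylation calls all became 0 when genes under a mean of 1 RPKM or a mean fraction of 0.05 were left out, while methylation gave 1003 calls without TTF1 and 264 without TTF4. Of 432 values of single collagens under alternatives, 347 kept their direction, 84 reversed it and 1 became called. None of the reversed values was called, and the cause was not tested. The median methylation difference of the collagens was 0.0821 on fractions as deposited, when that of all genes was 0.0771, and the median H3K4me3 difference ran from -0.27 to 0.27 as each line was left out. That of H3K36me3 ran further, from -0.63 without TTF4 to 0.55 without TTF1. In H3K36me3 quantile normalization moved the median of all genes to 0.014 and that of the collagens to 0.07. With Col15a1 and Col18a1 added to the type IV genes, fibrillar minus type IV was 0.00897, 0.030, 0.128 and 0.165 in methylation (PTC11, PTC12, TTF1, TTF4), where the TTF lines now both lay above the PTC lines, and 0.048, -0.868, 0.295 and 0.142 RPKM in H3K36me3, where they still did. In an alternative chosen after seeing the data, collagens whose TTF lines both lay below the PTC lines numbered 0 as deposited, 4 after quantile normalization and 4 on the logit scale, against 3.36%, 17.1% and 17.5% of all genes. Those with both TTF lines above numbered 6, 12 and 12, against 20.5%, 16.5% and 15.5% of all genes.

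In methylation the sign turned on fractions as deposited at Col11a1 (0.0524), Col1a2 (0.0307), Col22a1 (0.0505), Col24a1 (0.0451), Col4a1 (0.00549) and Col4a2 (0.0050), after quantile normalization at Col11a1 (0.0376), Col1a1 (-0.00445), Col4a1 (0.0113), Col4a2 (0.0122) and Col5a2 (-0.00875), and on the logit scale at Col1a1 (-0.026), Col27a1 (-0.048) and Col5a2 (-0.057). In H3K4me3 quantile normalization turned Col27a1 (-0.074). In H3K36me3 it turned Col11a1 (0.14), Col24a1 (0.068), Col27a1 (0.012), Col4a2 (0.049) and Col5a1 (0.060), and a pseudocount of 0.1 turned Col11a2 (-0.0063) and Col4a1 (-0.00096).

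Leaving out each line in turn, methylation differences that changed sign ranged at Col11a1 from -0.274 to 0.204, Col1a1 from -0.143 to 0.192, Col1a2 from -0.199 to 0.0867, Col22a1 from -0.336 to 0.262, Col24a1 from -0.206 to 0.122, Col26a1 from -0.0594 to 0.404, Col27a1 from -0.0864 to 0.0983, Col2a1 from -0.301 to 0.0901, Col4a1 from -0.238 to 0.0752, Col4a2 from -0.240 to 0.0761, Col4a3 from -0.102 to 0.261, Col4a4 from -0.117 to 0.247, Col4a5 from -0.597 to 0.00682, Col5a1 from -0.238 to 0.0535 and Col5a2 from -0.0293 to 0.0821. In H3K4me3 they ranged at Col13a1 from -0.35 to 0.18, Col15a1 from -0.14 to 0.35, Col27a1 from -0.23 to 0.29, Col2a1 from -0.022 to 0.42, Col4a1 and Col4a2 from -0.30 to 0.27, Col5a1 from -0.28 to 0.72 and Col8a2 from -0.34 to 0.15. In H3K36me3 they ranged at Col11a1 from -0.47 to 0.25, Col11a2 from -0.55 to 0.61, Col1a2 from -0.63 to 0.85, Col24a1 from -0.60 to 0.55, Col27a1 from -0.72 to 0.46, Col2a1 from -0.21 to 0.53, Col4a1 from -0.67 to 0.73, Col4a2 from -0.72 to 0.58, Col4a3 from -1.02 to 0.15, Col4a4 from -0.87 to 0.29, Col4a5 from -0.16 to 1.00, Col4a6 from -0.55 to 1.00, Col5a1 from -0.84 to 0.58, Col5a3 from -0.24 to 0.58, Col6a1 from -1.21 to 0.0030 and Col9a2 from -0.029 to 0.96.

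No paired analysis was possible because no line number occurs in both origins. The tables hold no coverage or counts, so the precision of a single fraction or RPKM value is unknown.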
